A study of Mus musculus with 9 samples.

Results

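Sulfate transport and activation was described through 8 genes: the carriers Slc13a1, Slc13a2, Slc26a1, Slc26a2 and Slc26a6, the PAPS synthases Papss1 and Papss2, and the sulfotransferase Sult1b1. They are 8 of the 19938 genes with a named probeset on the array. The gene names were taken from a list made with earlier results of these data known, and the probeset of each gene was to be chosen by the highest mean over all pools. Each gene had 1 named probeset, so that rule left nothing to choose. The p-values below come from fits across all genes tested and are not independent of the choice of genes.

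RNA came from scraped colon epithelium of male mice of the inbred C57BL/6J strain, 9 to 11 weeks old. All mice first ate the control diet for 1 week, in which fat supplies 40% of the energy. Control groups stayed on that diet and were killed at days 0, 2, 4, 7 and 14, and heme groups were given that diet with heme added at 0.2 µmol per g and were killed at days 2, 4, 7 and 14. Heme is the iron-holding pigment of red meat, and the series title sets responses that begin at once against responses that come late. The RNA of 4 mice was pooled for each diet and day (3 mice for the control group of day 2), and each pool was measured on 1 array. There are thus 5 control pools and 4 heme pools, each pool is the only one of its diet and day, so the spread given below, and every p-value, measures how pools of different days differ and says nothing of differences between single mice. In such pooled scrapings, fewer cells of a type and less RNA per cell cannot be told apart.

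Cells take up inorganic sulfate through carriers of the SLC13 and SLC26 families. The PAPS synthases join it to ATP and phosphorylate the product to make PAPS, the activated form. Sulfotransferases in the cytosol then place the sulfate group on phenols, steroids and hormones, and those of the Golgi place it on mucins and proteoglycans. In the colon, sulfated mucins are part of the mucus barrier, and colonocytes also conjugate phenols made by bacteria.

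Values are the authors' log2 expression values, so a difference of 1 is a 2-fold change. Levels of different probesets are not compared with each other. The array medians lay between 5.895 and 5.963. Colonocyte and goblet cell markers were high in every pool (list means of 11.58 to 11.78 and of 12.42 to 12.64). Both pools of day 2 held pancreatic acinar transcripts (a list mean of 8.82 on the control diet and of 9.22 on heme, against 5.67 to 5.83 in the other 7 pools), and smooth muscle markers varied between 6.69 and 9.59. Of the 8 genes, 7 passed the filter on dim genes (a mean of at least 4.716) and were tested among 14953 genes. Slc26a1 did not pass.

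Slc13a1 fell stepwise on heme and reached about 21% of the control level after 14 days. Slc13a1 encodes the apical sodium-sulfate cotransporter, which draws sulfate from the lumen together with sodium. Its level (probeset 10543411) in the control pools was 9.79, 10.04, 9.92, 10.04 and 10.01 on days 0, 2, 4, 7 and 14. In the heme pools it was 9.32, 9.16, 8.29 and 7.70 on days 2, 4, 7 and 14. The groups did not overlap, and each later heme pool was lower than the one before. All heme pools lay below all control pools for 1 of the 7 tested genes, Slc13a1, and for 2.33% of all genes tested. The same with a fall at each later day held for 0.575% of all genes, or 86 genes, among them Slc13a1. The reverse order, all heme pools above all control pools, held for 0 of the 7 and for 3.26% of all genes.

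**Figure D1:**
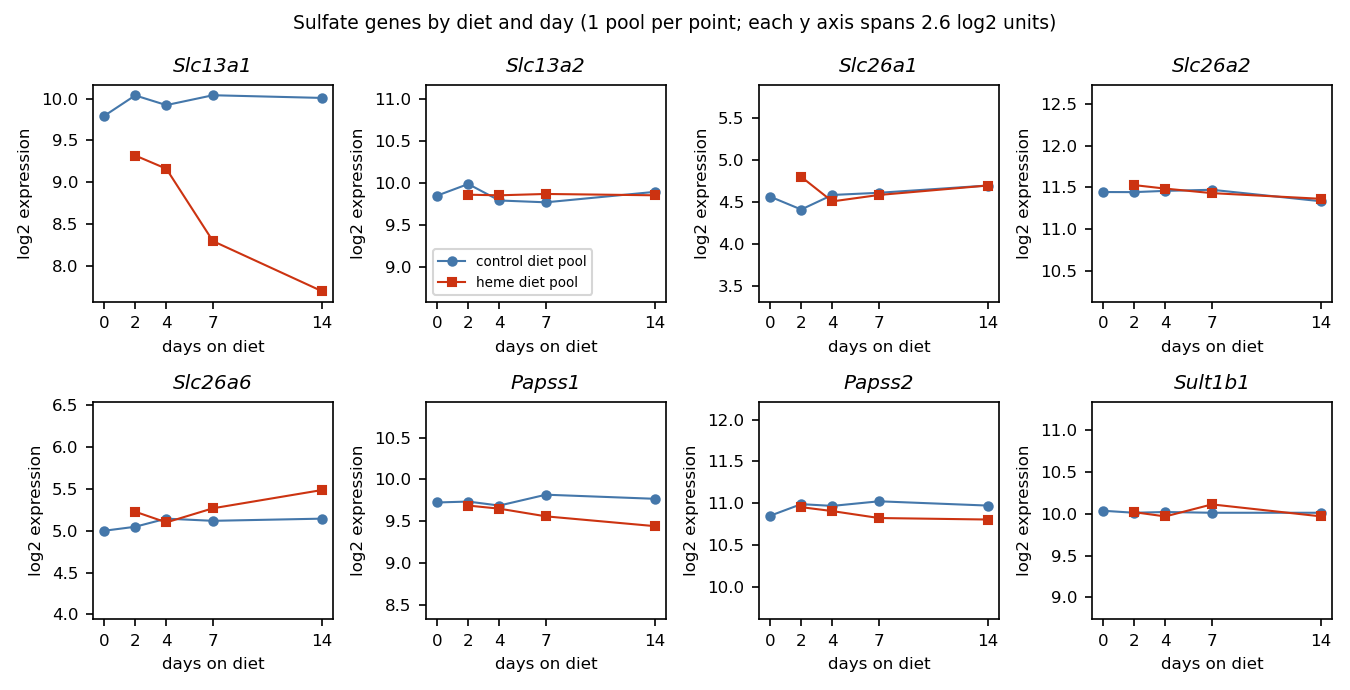
Log2 expression of the 8 genes (y axes, each spanning 2.6 log2 units) against days on diet (x axes), with 1 point per pool, control pools as blue circles and heme pools as red squares. Slc13a1 stays between 9.79 and 10.04 in the control pools and goes from 9.32 to 7.70 in the heme pools, while the other genes move by much less.

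Each heme pool was then set against the 5 control pools in limma, with the false discovery rate controlled across the 14953 genes (Benjamini-Hochberg) and a gene called where its adjusted p was under 0.05. The alternatives tried for a single day left out control pools in turn, but never the lone heme pool of that day. The log2 fold change of Slc13a1 was -0.64 on day 2 (SE 0.10, adjusted p = 0.312) and -0.80 on day 4 (SE 0.10, adjusted p = 0.171). Neither passed. No gene was called on day 2 (0% of all genes tested, 1385 at an unadjusted p under 0.05) and 1 gene on day 4 (0.00669%, 1049 at an unadjusted p under 0.05). On day 7 Slc13a1 was 3.17-fold lower (log2 fold change -1.66, 95% confidence interval -1.90 to -1.43, adjusted p = 0.00566). That day 1 of the 7 genes was called, against 1.63% of all genes tested. On day 14 it was 4.80-fold lower (log2 fold change -2.26, 95% confidence interval -2.50 to -2.03, adjusted p = 0.00172). No other gene of the 14953 had a lower log2 fold change on day 14, and 2 had a lower one on day 7. Set against the control pool of its own day alone, Slc13a1 was lower by a log2 difference of -0.72, -0.76, -1.75 and -2.31 on days 2, 4, 7 and 14. Dropping the control pool of day 14 ended the call of day 7 (log2 fold change -1.65, adjusted p = 0.0526), and that of day 14 was kept in all 9 alternatives tried.

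Over all days together, Slc13a1 averaged 8.62 ± 0.76 on heme (SD, n = 4 pools) against 9.96 ± 0.11 on the control diet (SD, n = 5 pools). The log2 fold change was -1.34 (SE 0.28, adjusted p = 0.0769), which did not pass although it was the lowest of all genes tested. The heme pools spread over 1.62 log2 units, the control pools over 0.25. In limma this contrast called 0 of the 7 genes, against 0.669% of all genes tested (0.595% higher and 0.0736% lower, with 2547 genes at an unadjusted p under 0.05). The median log2 fold change was -0.002 over the 7 genes and also -0.002 over all genes. Without the heme pool of day 2, the highest of its group, Slc13a1 was called (log2 fold change -1.57, adjusted p = 0.0196). In the rest of the 17 alternatives it stayed uncalled (adjusted p up to 0.25). The gap between the diets was larger on days 7 and 14 than on days 2 and 4 by a log2 difference of -1.29 (SE 0.24), with an adjusted p of 0.341. In that comparison 0 of the 7 genes and 0% of all genes tested were called, 990 of them with an unadjusted p under 0.05.

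Slc13a2 encodes the sodium-dicarboxylate cotransporter, which carries citrate and succinate and belongs to the same family as Slc13a1. Its level (probeset 10388834) was 9.85, 9.99, 9.79, 9.77 and 9.89 in the control pools and 9.86, 9.85, 9.87 and 9.85 in the heme pools, in order of day. The heme pools lay inside the range of the control pools. On day 14 the log2 fold change was -0.01, with a 95% confidence interval of -0.20 to 0.19, and over all days it was 0.00 with an interval of -0.10 to 0.10 (adjusted p = 0.977 and 0.998). A change of the size seen for Slc13a1 lies outside both intervals.

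Slc26a2 encodes the sulfate-chloride exchanger that supplies sulfate for proteoglycans and mucins. Its level (probeset 10459183) was 11.44, 11.44, 11.46, 11.47 and 11.33 in the control pools and 11.53, 11.49, 11.43 and 11.36 in the heme pools. The groups overlapped, and the lowest pool of each diet was that of day 14. The log2 fold change over all days was 0.02 (95% confidence interval -0.07 to 0.11, adjusted p = 0.787) and on day 14 it was -0.07 (-0.20 to 0.06, adjusted p = 0.412).

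Slc26a1 encodes another exchanger of sulfate, with oxalate and bicarbonate, known from liver and kidney. It was dim in every pool (probeset 10532241, 4.41 to 4.70 in the control and 4.51 to 4.80 in the heme pools), with means of 4.57 and 4.65 below the filter value. Fitted without the filter, its log2 fold change between the diets was 0.07 (adjusted p = 0.643).

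Slc26a6 rose on day 14. It encodes an apical exchanger of chloride, bicarbonate and oxalate that can also carry sulfate. Its level (probeset 10589166) was 5.00, 5.05, 5.14, 5.12 and 5.14 in the control pools and 5.23, 5.10, 5.27 and 5.49 in the heme pools. Of the heme pools, 3 lay above all control pools, and that of day 4 lay among them. On day 14 it was 1.32-fold higher (log2 fold change 0.40, 95% confidence interval 0.20 to 0.59, adjusted p = 0.0177), a call kept in all 9 alternatives. Its level is close to the filter value, and its fold rests on a dim signal. Of the further lists below, the tested genes with the lowest control means were higher on day 14 too. In log2 they differed by 0.18 (Arsj), 0.54 (Slc13a3), 0.07 (Hs6st3), 0.265 (Chst5) and 0.26 (Chst1), with control means of 4.88 to 5.23. The dim Hs3st1 (control mean 5.64) went the other way (-0.05). Whether Slc26a6 shares a shift of dim genes on that array was not tested. Over all days the log2 fold change of Slc26a6 was 0.18 (SE 0.08, adjusted p = 0.28).

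Papss1 fell on day 14. It is 1 of the PAPS synthases, which carry ATP sulfurylase and APS kinase in a single protein. Its level (probeset 10496110) was 9.72, 9.73, 9.69, 9.82 and 9.77 in the control pools and 9.69, 9.65, 9.56 and 9.44 in the heme pools. Each later heme pool was again lower than the one before, and 3 of the 4 lay below all control pools. On day 14 it was 1.24-fold lower (log2 fold change -0.31, 95% confidence interval -0.43 to -0.18, adjusted p = 0.0116), a call kept in all 9 alternatives. On day 7 the log2 fold change was -0.19 (adjusted p = 0.136), and over all days it was -0.16 (SE 0.05, adjusted p = 0.191).

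Promoter windows from RefSeq (build GRCm38.p6, from 250 bases before to 50 after a start) were found for 6 of the 8 genes. Those of Slc26a6 and of the first of 2 starts of Papss1 are shown because these genes moved in opposite directions on day 14. Both lie on the plus strand, at chr9:108853793-108854092 and chr3:131564518-131564817, and are written 5′ to 3′ with matches to 2 motifs in capitals, the CCAAT box (CCAAT) and the GC box (GGGCGG), each searched on both strands.
Slc26a6: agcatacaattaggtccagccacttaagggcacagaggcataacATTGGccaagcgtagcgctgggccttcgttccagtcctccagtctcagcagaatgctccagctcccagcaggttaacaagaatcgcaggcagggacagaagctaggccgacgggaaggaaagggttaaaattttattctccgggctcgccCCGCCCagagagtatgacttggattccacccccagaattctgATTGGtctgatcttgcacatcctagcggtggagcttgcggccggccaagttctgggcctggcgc
Papss1: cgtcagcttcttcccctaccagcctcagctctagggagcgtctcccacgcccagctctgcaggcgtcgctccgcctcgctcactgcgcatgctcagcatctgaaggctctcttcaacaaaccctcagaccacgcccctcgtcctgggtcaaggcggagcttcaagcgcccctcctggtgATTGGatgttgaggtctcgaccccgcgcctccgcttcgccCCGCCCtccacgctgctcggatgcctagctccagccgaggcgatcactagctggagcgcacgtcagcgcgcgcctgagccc

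The Slc26a6 window held 2 CCAAT boxes and 1 GC box, and the Papss1 window held 1 of each, all on the minus strand and none overlapping. A CCAAT box was in 37.4% and a GC box in 35.7% of all 32851 windows of this length. Neither window held the core of the antioxidant response element (TGACNNNGC, in 12.4% of all windows), a nuclear receptor half-site (AGGTCA, 16.3%), a CDX core (TTTATG, 11.9%) or a TATA box (TATAAA, 13.6%). The GC content was 56% for Slc26a6 and 66.3% for Papss1, against a median of 52.7% over all windows. These are matches of letters in a short window and say nothing of which factors bind there.

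Papss2, the second PAPS synthase, moved less. Its level (probeset 10462507) was 10.85, 10.99, 10.97, 11.02 and 10.97 in the control pools and 10.95, 10.91, 10.82 and 10.81 in the heme pools. The groups overlapped through the control pool of day 0, the lowest of its group. The log2 fold change was -0.16 on day 14 (95% confidence interval -0.31 to -0.004, adjusted p = 0.115) and -0.09 over all days (SE 0.04, adjusted p = 0.317). Without the control pool of day 0 the value of day 14 was called (log2 fold change -0.18, adjusted p = 0.0251). In the rest of the 9 alternatives for day 14 Papss2 stayed uncalled. The heme pool lay below the control pool of its own day on all 4 days for 3 of the 7 genes, Slc13a1, Papss1 and Papss2, and for 12% of all genes tested. The reverse held for 0 of the 7 and for 10.9% of all genes.

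Sult1b1, a cytosolic sulfotransferase of phenols and thyroid hormones, was level. Its control pools (probeset 10531087) lay between 10.01 and 10.04, and 3 of them held an identical value, so the control spread of this gene is understated. The heme pools stood at 10.02, 9.97, 10.11 and 9.97. The highest was that of day 7, and the pools of days 4 and 14 lay just below the control pools. The log2 fold change over all days was -0.002 (95% confidence interval -0.08 to 0.07, adjusted p = 0.983). On day 7 it was 0.09 (adjusted p = 0.174).

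**Figure D2:**
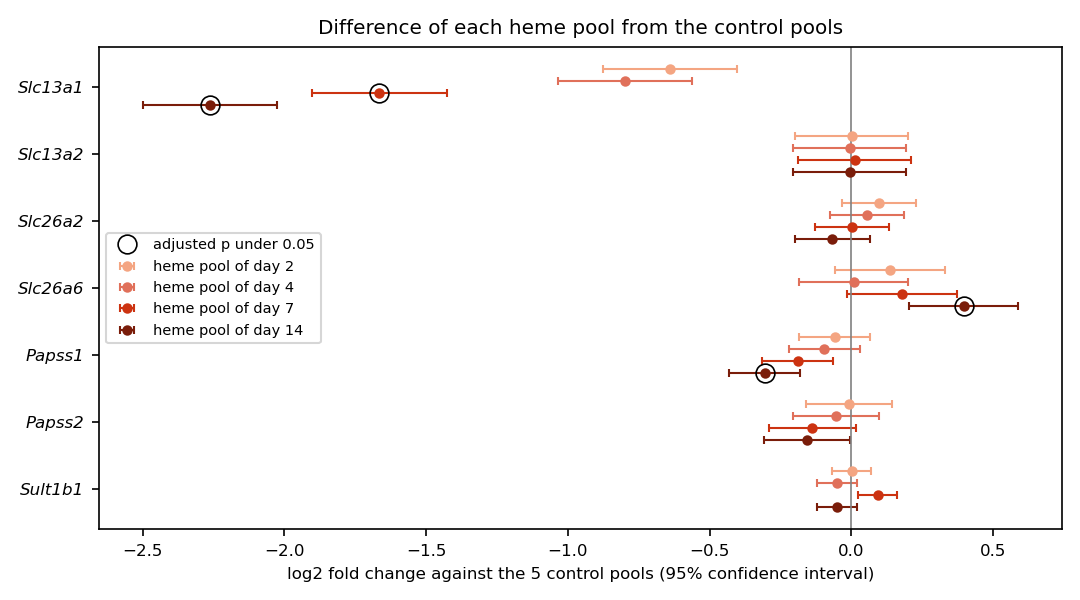
Log2 fold change of each heme pool against the 5 control pools (x axis) for the 7 tested genes (y axis), with 95% confidence intervals as bars, days from light (day 2) to dark (day 14) and a black ring around each call at an adjusted p under 0.05. The rings mark Slc13a1 on days 7 and 14 and Slc26a6 and Papss1 on day 14.

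On day 14, 3 of the 7 genes were called, 2 lower (Slc13a1 and Papss1) and 1 higher (Slc26a6), against 27.1% of all genes tested (1686 higher and 2359 lower). That heme pool differed from the control pools in a large share of all genes, so a call on that day is common. The median log2 fold change of the 7 genes was -0.07, and that of all genes -0.001. On the control diet alone the slope on log2(day + 1) was called for 0 of the 7 genes and 0% of all genes tested in limma (1073 at an unadjusted p under 0.05). Slc13a1 had a slope of 0.05 log2 per unit there (adjusted p = 0.705), a value above 0 that did not pass.

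The genes nearest to Slc13a1 in pattern over the 9 pools were Slc10a2, Sstr1 and Sis, with Pearson correlations of 0.988, 0.983 and 0.982. These are descriptions over 9 pools that share diet and day. Slc10a2, the apical sodium-dependent bile acid transporter, was 10.45 to 10.65 in the control pools and 10.31, 10.11, 9.54 and 9.25 in the heme pools of days 2, 4, 7 and 14. Sis, the brush-border enzyme sucrase-isomaltase, was 6.92 to 7.52 in the control pools and 6.64, 6.49, 5.48 and 5.04 in the heme pools. Sstr1, a receptor for somatostatin, was 7.69 to 7.91 in the control pools and 7.59, 7.28, 6.74 and 6.55 in the heme pools. These genes were picked for their likeness to Slc13a1 in these same pools, so their order and calls follow in large part from the choice. In each of them the heme pools lay below all control pools, as in 2.33% of all genes tested, with the lowest on day 14. On that day the log2 fold change was -1.30 for Slc10a2 (adjusted p = 0.00226), -1.23 for Sstr1 (adjusted p = 0.00251) and -2.17 for Sis (adjusted p = 0.0045). On day 7 all 3 were called too (-0.999, -1.04 and -1.73, adjusted p = 0.00966, 0.00966 and 0.0311). Dropping the control pool of day 2, 7 or 14 ended that call for Slc10a2 (adjusted p up to 0.066), dropping that of day 2, 4 or 7 ended it for Sstr1 (up to 0.066), and dropping any single control pool ended it for Sis (up to 0.1). Among the 7 tested genes, Papss1 came nearest to Slc13a1 (correlation 0.958), followed by Papss2 (0.833), while Slc26a6 ran opposite to it (-0.859).

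Slc10a2 and Sis are also on a list of 6 markers of small intestinal enterocytes. Both were named above for their likeness to Slc13a1, so a mean that holds them follows it by construction. The list mean lay between 6.85 and 6.95 in the control pools and at 6.95, 6.68, 6.43 and 6.28 in the heme pools of days 2, 4, 7 and 14, inside the control range on day 2. The mean of the other 4 markers lay between 5.89 and 5.97 in the control pools and at 6.19, 5.87, 5.88 and 5.84 in the heme pools, with a log2 difference of -0.095 from the control mean on day 14. Among these 4, Lct was dim, at 5.05 to 5.10 in the control pools and 5.09 to 5.41 in the heme pools. All 6 markers were above the filter, and on day 14 3 were called lower (Slc10a2, Sis and the ileal bile acid binding protein Fabp6, at -1.07) and 1 higher (the lactase Lct, at 0.34). The call of Fabp6 ended on dropping the control pool of day 2 or 7 (adjusted p up to 0.0657). Fabp6 was also called between the diets (log2 fold change -0.83, adjusted p = 0.039), a call that 11 of 17 alternatives ended (adjusted p up to 0.133), among them the day as replicate block (-0.89, adjusted p = 0.0923) and dropping any single heme pool or the control pool of day 0, 2, 4 or 7. The apolipoproteins Apoa1 and Apoa4 did not pass on day 14 (log2 fold changes 0.20 and 0.15, adjusted p = 0.512 and 0.58). Posterior Hox genes, which mark the distal gut, had a list mean of 6.85 to 7.25 in the control pools and of 6.93, 6.83, 6.84 and 6.57 in the heme pools, with 1 of 5 called lower on day 14, Hoxd13 (-0.67, adjusted p = 0.0477). That call ended on dropping the control pool of day 2, 4, 7 or 14, and without the filter or the trend (adjusted p up to 0.1). The log2 fold changes of the other Hox genes on day 14 were -0.81 (Hoxd10), -0.37 (Hoxd11), -0.14 (Hoxa13) and 0.09 (Hoxd12). Hoxd12 thus went the other way. Its heme pools (5.315 to 5.565) lay above all control pools (5.19 to 5.251), as in 3.26% of all genes tested. The colonocyte list mean was higher in the heme pools (11.69 to 11.78 against 11.58 to 11.64), the list mean of proliferating crypt cells was 8.09 to 8.41 against 7.91 to 8.11, and the goblet cell list mean was 12.42 in the heme pool of day 14 against 12.54 to 12.62 in the control pools. On day 14 the calls were 3 higher and 1 lower of 7 colonocyte markers, 3 higher and 0 lower of 4 markers of proliferating crypt cells, and 0 higher and 2 lower of 5 goblet cell markers. Of the other lists, 2 of 2 tested markers of the renal proximal tubule and 1 of 2 of hepatocytes were called higher, and 1 of 5 of pancreatic acinar cells lower. The renal list was dim, with a mean of 4.58 to 4.715 in the control pools and of 4.62 to 4.95 in the heme pools. These means lie around the filter value of 4.716, and Umod and Kap of that list did not pass the filter. Calls at such a level rest on a dim signal. The smooth muscle list mean was 6.88 in the heme pool of day 14 and 6.89 to 9.59 in the control pools. On day 14 27.1% of all genes tested were called, so the marker counts of that day are to be read against that share. Between the diets 1 of 7 colonocyte markers was called, against 0.669% of all genes tested. The part of the shifts in these lists in the fall of Slc13a1 was not tested.

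**Figure D3:**
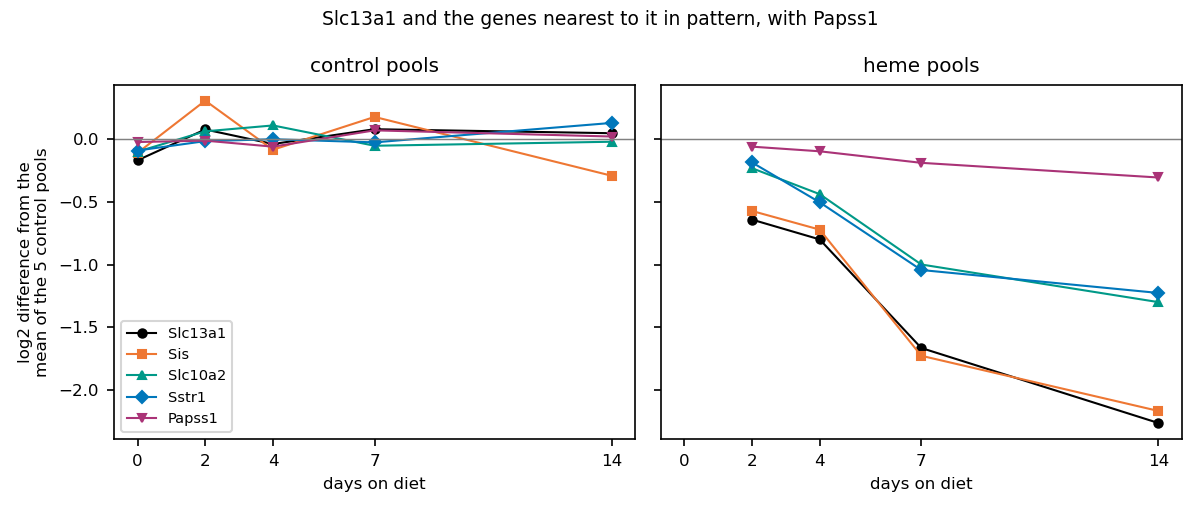
Log2 difference from the mean of the 5 control pools (y axis) against days on diet (x axis) for Slc13a1, the 3 genes nearest to it in pattern and Papss1, with 1 point per pool, control pools on the left and heme pools on the right. Slc13a1 and Sis reach -2.26 and -2.17 in the heme pool of day 14, Slc10a2 and Sstr1 -1.30 and -1.23, and Papss1 -0.31.

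For Slc26a6, the tested gene with the next largest spread over the pools, the nearest genes were the chaperonin subunit Cct7 (Pearson correlation 0.992 over 9 pools), Ajap1 (0.964) and Atxn7l2 (0.961). These genes were picked for this likeness in the same pools, so their calls on day 14 follow in large part from the choice. Their log2 fold changes on day 14 were 0.15, 0.48 and 0.27 (adjusted p = 0.0394, 0.0165 and 0.0244), and over all days 0.07, 0.18 and 0.14 (adjusted p = 0.326, 0.348 and 0.268). The day 14 call of Cct7 ended on dropping the control pool of day 0, 2, 7 or 14, without the trend or with arrays centred on their medians (adjusted p up to 0.085). The last of these also ended that of Atxn7l2 (0.0558).

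Other genes that handle sulfate were read from 6 further lists. Between the diets 1 of their 57 tested genes was called, against 0.669% of all genes tested (0.595% higher). It was Mpst, which transfers sulfur from mercaptopyruvate. Its control pools rose at each later day, from 8.60 on day 0 to 8.85 on day 14. Its heme pools lay between 8.95 and 9.23, without overlap. All heme pools lay above all control pools for 3.26% of all genes tested. Mpst rose by a log2 fold change of 0.36 (SE 0.07, adjusted p = 0.0387), a call lost in 9 of 17 alternatives: on dropping any single control pool, on dropping the heme pool of day 4, 7 or 14, and without the trend (adjusted p up to 0.151). With the day as replicate block the call was kept (log2 fold change 0.33, adjusted p = 0.0272).

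The cytosolic sulfotransferases held the largest falls of these lists. On day 14, 2 of 4 tested were called lower and 1 higher, with a list median of -0.50. Both genes called lower had all heme pools below all control pools, as had 2.33% of all genes tested. Sult1a1, the main phenol sulfotransferase, was 10.66 to 10.86 in the control pools and 10.55, 10.54, 10.18 and 9.77 in the heme pools. All heme pools lay below all control pools, and the log2 fold change on day 14 was -0.99 (adjusted p = 0.00251). Sult1c2, of the same family, was 9.12 to 9.36 in the control pools and 9.00, 8.96, 8.57 and 8.34 in the heme pools, again without overlap. It fell by 0.90 on the log2 scale on day 14 (adjusted p = 0.00474). On day 7 both were called too (-0.58 and -0.67, adjusted p = 0.0278 and 0.0352), calls that each ended on dropping any single control pool (adjusted p up to 0.1 for each), and for Sult1c2 also without the filter or the trend (0.0545 and 0.0523). Over all days neither passed (-0.49 for Sult1a1, adjusted p = 0.163, and -0.52 for Sult1c2, adjusted p = 0.121). Sult2b1, which conjugates cholesterol, was higher on day 14 by 0.36 (adjusted p = 0.0311), a call that ended on dropping the control pool of day 0, 2 or 7 (adjusted p up to 0.0676). Sult1d1 had a log2 fold change of -0.09 on that day (adjusted p = 0.272).

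Of the other carriers of both families, 5 of 11 passed the filter. Slc26a3, the chloride-bicarbonate exchanger of the colon surface, differed by -0.02 between the diets and by -0.06 on day 14 in log2 (adjusted p = 0.644 and 0.341). On day 14 Slc13a3, a second dicarboxylate carrier, was higher by 0.54 (adjusted p = 0.0324) and Slc26a10 by 0.31 (adjusted p = 0.0473), both dim. Dropping the control pool of day 0, 2 or 7 ended the call of Slc13a3 (adjusted p up to 0.0675). That of Slc26a10 ended on dropping the control pool of day 0, 2, 7 or 14, and also without the filter or with arrays centred on their medians (up to 0.0872).

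In the list of PAPS transport and PAP removal 2 of 4 genes were called higher on day 14. These were Slc35b2, which moves PAPS into the Golgi (0.26, adjusted p = 0.0242), and Bpnt1, which breaks down the PAP left by sulfotransferases (0.28, adjusted p = 0.0496). The call of Bpnt1 ended on dropping any single control pool, and also without the filter or the trend (adjusted p up to 0.101). The other Golgi transporter, Slc35b3, and the Golgi phosphatase Bpnt2 did not pass (-0.11, adjusted p = 0.0774, and -0.12, adjusted p = 0.194).

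Among 24 Golgi sulfotransferases 6 were called higher and 3 lower on day 14, with a list median of 0.06, and on day 7 Chst11 alone was called. Chst11, a chondroitin sulfotransferase, went from 6.28 to 6.54 in the control pools to 6.47, 6.81, 7.03 and 7.08 in the heme pools, a log2 fold change of 0.70 on day 14 (adjusted p = 0.00827). Its call of day 7 (0.64, adjusted p = 0.0454) ended on dropping any single control pool, and also without the filter or the trend (adjusted p up to 0.123). Chst15, which adds a further sulfate to chondroitin, fell by 0.30 on the log2 scale on day 14 (adjusted p = 0.0299), a call that ended on dropping the control pool of day 0 or 7 (adjusted p up to 0.0635). Of 12 sulfatases and their activators 0 were called higher and 3 lower on day 14, with a list median of -0.004. The lowest was Arsk, an arylsulfatase, at -0.74 (adjusted p = 0.00619), and the highest value of the list was that of Sulf2, which trims heparan sulfate outside the cell (0.53, adjusted p = 0.105).

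In the list of sulfide and cysteine sulfur oxidation 3 of 8 genes were called higher and 0 lower on day 14, with a median of 0.16. They were Mpst (0.50, adjusted p = 0.0136), Cth, which splits cystathionine into cysteine (0.31, adjusted p = 0.00915), and Ethe1, the mitochondrial persulfide dioxygenase (0.42, adjusted p = 0.0459). The call of Ethe1 ended on dropping the control pool of day 2, 4, 7 or 14, and also without the filter or the trend (adjusted p up to 0.091). On day 14 27.1% of all genes were called, as above, so the counts of these lists on that day are to be read against that share. The control pools are of all days, and in some genes they moved with time. Bpnt1 went from 10.03 on day 0 to 10.25 on day 14 in the control pools, with 10.435 in the heme pool of day 14. Sulf2 went from 6.77 to 7.34, with 7.53 in that heme pool. The marker Hoxd13 went from 8.44 down to 7.88, with 7.41 in that heme pool.

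**Figure D4:**
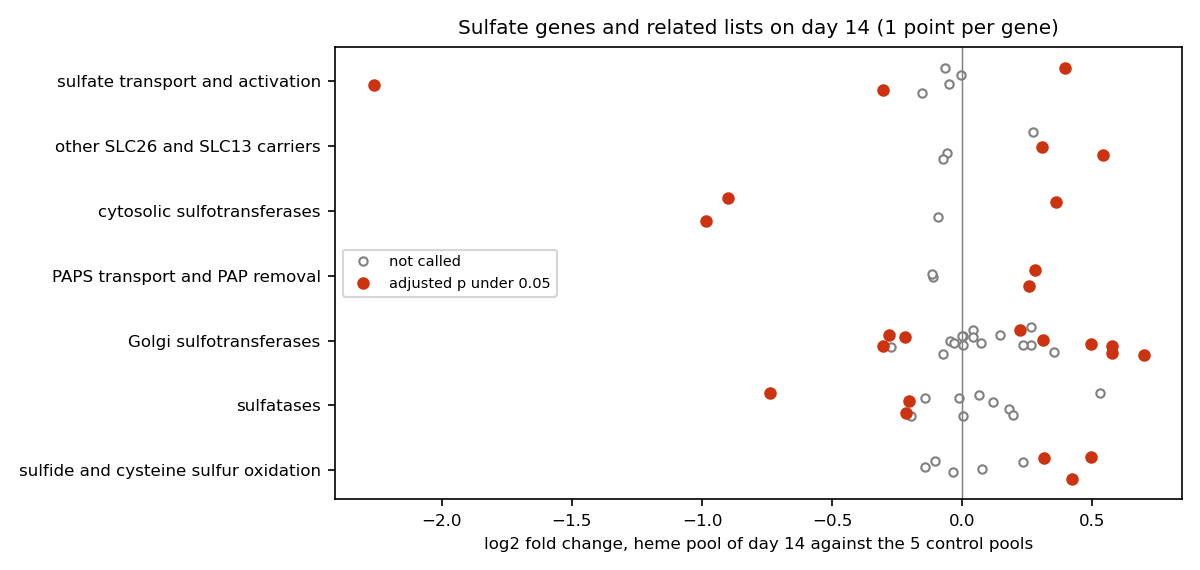
Log2 fold change of the heme pool of day 14 against the 5 control pools (x axis) for the 7 tested genes of sulfate transport and activation and for 6 further lists (rows), with 1 point per gene, filled red where the adjusted p was under 0.05. Slc13a1 at -2.26 lies furthest to the left, followed by Sult1a1 at -0.99 and Sult1c2 at -0.90.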

How the data were processed

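RNA of 9 pools was hybridised to Affymetrix whole-transcript arrays. The deposited values are log2 expression levels of probesets. The authors made them with RMA, per the submitters' processing notes, and the sources used here name no version. RMA normalizes the arrays together and can leave identical values in several arrays, which understates spread. Besides Sult1b1, shared values as rounded here were seen in genes called on day 14. Sult2b1 held 7.994 in the control pool of day 7 and the heme pools of days 2, 4 and 7. In the control pools of days 4 and 14 Slc26a6 held 5.145 and Cct7 held 9.372. Atxn7l2 held 5.363 in the control pools of days 2, 7 and 14 and the heme pool of day 4. Chst15 held 7.077 in the control pools of days 2 and 4. Lct held 5.091 in the control and heme pools of day 7, and Hoxd13 held 7.999 in the heme pools of days 2 and 7. Of 35556 probesets, 21789 had 1 gene symbol, 1621 several and 12146 none in the platform annotation. Each of 19938 genes was represented by its probeset of highest mean, and the 14953 with a mean at or above the 25th percentile (4.716) were tested.

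Fits used limma 3.58.1 in R 4.3.3 (lmFit, eBayes with an intensity trend), checked on simulated data, and Python 3.11.15. The Benjamini-Hochberg adjustment ran over all 14953 genes. A heme day has 1 pool, which is assumed to vary like the 5 control pools. The number of arrays limits the precision. Members, gene lists and tests were chosen with earlier results of these data known, and the CCAAT and GC box motifs after the windows had been read. The named genes were all members, every pathway gene called between the diets or else the highest and lowest of each list, and the 3 genes nearest in pattern to the 2 members of largest spread. Genes named beyond that rule, such as Sult1a1, Sult1d1, Slc26a10, Slc35b2, Slc35b3, Cth, Ethe1 and the markers, were chosen after their values were seen.

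The labels give control and heme pools a shared day. The fit with the day as replicate block is an alternative. Others left out single pools in turn or changed the filter, the trend, the scaling or the choice of probeset. For a single heme day only control pools were left out.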

Additional observations from a re-analysis of the deposited data

Results flagged for a closer look

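In Slc26a2 the control pool of day 14 stood apart from the other control pools (11.33 against 11.44 to 11.47), with a gap of 0.796 of the whole range of the 5 control pools. About 1 in 20 groups would be marked in this way by chance, and 16 groups were examined.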

How the results depend on the processing

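The day 14 calls of Slc13a1, Papss1 and Slc26a6 were kept in all 9 alternatives run for that day (adjusted p up to 0.0143, 0.0293 and 0.0379). None of the 9 left out the heme pool of day 14, on which each of these calls rests. Nor did they hold the filter at the median of gene means (6.25) or renewed quantile normalization, which were run between the diets only. There that filter removed Slc26a6, and renewed quantile normalization gave it a log2 fold change of 0.13 against 0.18. The day 14 alternatives thus did not test how its call depends on these settings. Averaging the probesets of a gene could not change their values, because each has 1 named probeset. The count of the 7 genes called ranged from 0 to 1 on day 7 and from 0 to 1 between the diets as single pools were left out. Over all genes, leaving out single pools gave 30 to 251 calls between the diets (100 with all pools, 49 without the control pool of day 0), 0 to 16 on day 2 (0), 0 on day 4 (1) and 8 to 68 on day 7 (244). The day 2 value of 16 came without the control pool of that day. On day 4 the count was 0 without the filter, 0 without the trend and 6 with arrays centred on their medians. On day 7 it was 93 without the filter and 115 without the trend; the cause was not tested. Day as replicate block left Slc13a1 uncalled between the diets (log2 fold change -1.38, adjusted p = 0.088) and in the late against early difference (-1.29, adjusted p = 0.109), and it changed no other call of the 7 genes. With it Slc13a2 (-0.002) and Sult1b1 (0.0026) changed sign between the diets. Deviations from the diet means of pools of the same day correlated with r = 0.658, 3.55e-05, 0.3 and 0.204 on days 2, 4, 7 and 14. For pools of unlike days r ran from -0.475 to 0.396. The control pools of days 4 and 14 correlated better with the heme pool of another day (0.296 and 0.396). Deviations cancel out over the days of a diet, which by itself pulls the values of unlike days down. These values thus do not decide whether the shared day pairs the pools. The main fits leave the day out.

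Other changes of sign were in values near 0, none of them called. With arrays centred on their medians, Sult1b1 was 0.0052 between the diets, Papss2 0.025 on day 2, Slc13a2 0.011 on day 4 and Slc26a2 -0.0042 on day 7. Quantile normalization again gave -0.0061 for Slc13a2 and -0.0082 for Slc26a2 between the diets. Without both pools of day 2, an alternative chosen after seeing the data, Slc13a2 was -0.032 in the late against early difference. As single pools were left out, values between the diets ran from -0.022 to 0.033 for Slc13a2, from -0.0032 to 0.051 for Slc26a2 and from -0.033 to 0.015 for Sult1b1. On day 2 they ran from -0.035 to 0.0078 for Papss2, from -0.021 to 0.034 for Slc13a2 and from -0.0011 to 0.0050 for Sult1b1. On day 4 they ran from -0.028 to 0.027 for Slc13a2 and from -0.014 to 0.022 for Slc26a6. On day 7 they ran from -0.011 to 0.044 for Slc13a2 and from -0.022 to 0.012 for Slc26a2, and on day 14 from -0.028 to 0.027 for Slc13a2. In the late against early difference they ran from -0.035 to 0.16 for Slc13a2, from -0.13 to 0.0079 for Slc26a2 and from -0.020 to 0.12 for Sult1b1. The control slopes ran from -0.0011 to 0.054 for Papss2, from -0.035 to 0.0022 for Slc13a2 and from -0.044 to 0.0087 for Slc26a2. Slc26a1 and Slc26a6 have signals near the filter value, which limits what their folds can show.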
